A study of Mus musculus with 6 samples.

Results

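Expression of genes for renal phosphate, klotho and vitamin D handling was compared between kidneys with and without adiponectin overexpression. The 10 genes are *Slc34a1*, *Slc34a3*, *Slc20a1*, *Slc20a2*, *Kl*, *Fgfr1*, *Pth1r*, *Cyp27b1*, *Cyp24a1* and *Trpv5*. They were taken by gene symbol (GENCODE M21) from the 54532 genes of the deposited table by a rule that uses no measured value, although earlier results of these data were known when they were chosen, and all 10 passed the filter on low counts, as did 16017 genes in all.

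Filtered phosphate is recovered in the proximal tubule by sodium-phosphate cotransporters of the brush border, and parathyroid hormone and FGF23 lower the amount of these transporters at the membrane. The former acts through its receptor *Pth1r*, and FGF23, made by bone, acts through FGF receptors with klotho (*Kl*) as the coreceptor. The proximal tubule also makes the active form of vitamin D with *Cyp27b1* and breaks it down with *Cyp24a1*, whose transcription active vitamin D induces, and *Trpv5* lets calcium enter cells of the distal nephron.

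Whole kidneys came from 2 groups of male mice on a C57BL/6 background. Control mice carried KsprtTA, in which the Ksp promoter drives a doxycycline-dependent activator along the renal epithelia, proximal tubule and collecting duct included. KSPAPN mice carried KsprtTA together with TRE-adiponectin, so that adiponectin is made in these epithelia. Both groups ate normal chow with doxycycline at 600 mg/kg for 4 days, and the ages of these mice were not given in the sources used here. Each of the 3 libraries per group pooled kidney RNA from 3 mice, so that p-values measure the spread between pools. In the sample labels, the Control genotype is WT, and the text on RNA extraction names liver although the tissue is given as kidney.

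Each library held from 17183358 to 20871173 gene counts. *Adipoq*, the overexpressed gene, had 2, 0 and 2 counts in Control and 24629, 17483 and 26811 in KSPAPN. A count of 0 in Control replicate 2 allows a level of up to 0.167 CPM. Markers of the proximal tubule, loop, distal nephron and collecting duct were present in every library. The collecting duct marker *Avpr2* had only 2, 2 and 5 counts in Control and 9, 9 and 7 in KSPAPN, and did not pass the filter. Of 5 hepatocyte markers, *Ttr* had between 967 and 3076 counts per library, *Fga* 220 to 407, *Apoc3* 118 to 227, *Alb* 15 to 213 and *Serpina3k* 0 to 34. *Ttr* was lower in KSPAPN (log2 fold change -1.17, edgeR adjusted p = 0.0388, up to 0.175 with a library left out), *Apoc3* and *Fga* differed by -0.56 and -0.37 on the log2 scale and *Alb* by 0.55, none of these 3 called.

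The starts of 4 of these genes are shown, those of the brush border cotransporters *Slc34a1* and *Slc34a3*, the hormone receptor and the activating enzyme. Each window runs from 250 bases before to 50 bases after a RefSeq start (GRCm38.p6), 5′ to 3′ on the strand of the gene. Capitals mark a match on either strand to TATAAA, the core promoter box, to GTTAAT, one side of an HNF1 site, or to AGGTCA, the half-site of nuclear receptors. The cAMP response element TGACGTCA was searched as well. The motifs do not overlap in these windows, and they were chosen after the data had been seen.
Slc34a1, chr13:55399398-55399697, + strand: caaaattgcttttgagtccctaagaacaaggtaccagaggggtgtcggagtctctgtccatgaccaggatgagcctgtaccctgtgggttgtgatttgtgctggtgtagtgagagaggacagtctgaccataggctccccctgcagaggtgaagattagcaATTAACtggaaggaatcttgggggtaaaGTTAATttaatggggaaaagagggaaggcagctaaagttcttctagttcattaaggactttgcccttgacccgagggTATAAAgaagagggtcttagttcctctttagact
Slc34a3, chr2:25234185-25234484, - strand: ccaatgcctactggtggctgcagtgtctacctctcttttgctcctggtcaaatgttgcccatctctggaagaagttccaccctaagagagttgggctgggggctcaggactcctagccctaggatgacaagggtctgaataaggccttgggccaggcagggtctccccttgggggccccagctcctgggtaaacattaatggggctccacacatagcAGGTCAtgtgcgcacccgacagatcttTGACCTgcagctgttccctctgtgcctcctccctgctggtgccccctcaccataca
Pth1r, first of 3 starts, chr9:110747096-110747395, - strand: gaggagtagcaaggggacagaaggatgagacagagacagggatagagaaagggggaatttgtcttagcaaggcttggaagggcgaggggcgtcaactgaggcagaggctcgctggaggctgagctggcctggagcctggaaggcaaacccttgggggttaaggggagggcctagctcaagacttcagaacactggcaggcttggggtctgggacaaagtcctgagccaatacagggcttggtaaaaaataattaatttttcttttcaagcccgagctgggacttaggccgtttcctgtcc
Cyp27b1, chr10:127047996-127048295, + strand: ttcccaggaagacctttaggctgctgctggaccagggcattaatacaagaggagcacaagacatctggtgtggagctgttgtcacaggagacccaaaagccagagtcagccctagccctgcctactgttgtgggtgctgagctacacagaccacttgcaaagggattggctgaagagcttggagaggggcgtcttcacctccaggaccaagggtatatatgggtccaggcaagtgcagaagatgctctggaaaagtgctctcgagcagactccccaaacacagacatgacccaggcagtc
*Slc34a1* held GTTAAT at 89 and 61 bases before its start, on opposite strands, and TATAAA 17 bases after it. *Slc34a3* held AGGTCA at 33 and 6 bases before its start, and the windows of *Pth1r* and *Cyp27b1* held none of the 4 motifs. Of 32544 promoter windows of the same length, 13.6% held TATAAA, 7.13% GTTAAT, 16.2% AGGTCA and 1.80% TGACGTCA. These matches describe letters in the windows only. Windows were present for 7 of the 10 genes, and not for *Slc20a2*, *Fgfr1* or *Cyp24a1*.

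The largest difference among the 10 genes was in the enzyme that breaks down vitamin D. *Cyp24a1* was 5.10-fold lower in KSPAPN, and *Pth1r*, the parathyroid hormone receptor, was 1.40-fold lower. These were the only 2 genes of the 10 past an adjusted p of 0.05 by the quasi-likelihood test of edgeR, adjusted over all genes tested, and none was higher. Over all genes tested, 2.25% were lower and 0.393% were higher by the same call, or 2.65% in either direction. By DESeq2, 4 of the 10 were lower, with *Slc34a3* and *Cyp27b1* added, against 5.51% of the genes to which it gave an adjusted p. At an unadjusted p under 0.05, *Slc34a3*, *Slc20a2* and *Cyp27b1* were lower as well, 5 of 10 in all and 0 higher, against 11.2% lower and 7.52% higher over all genes. The log2 fold change was below 0 for 9 of the 10 genes, against 48.1% of all genes, with a median of -0.20 against 0.012.

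**Figure D1:**
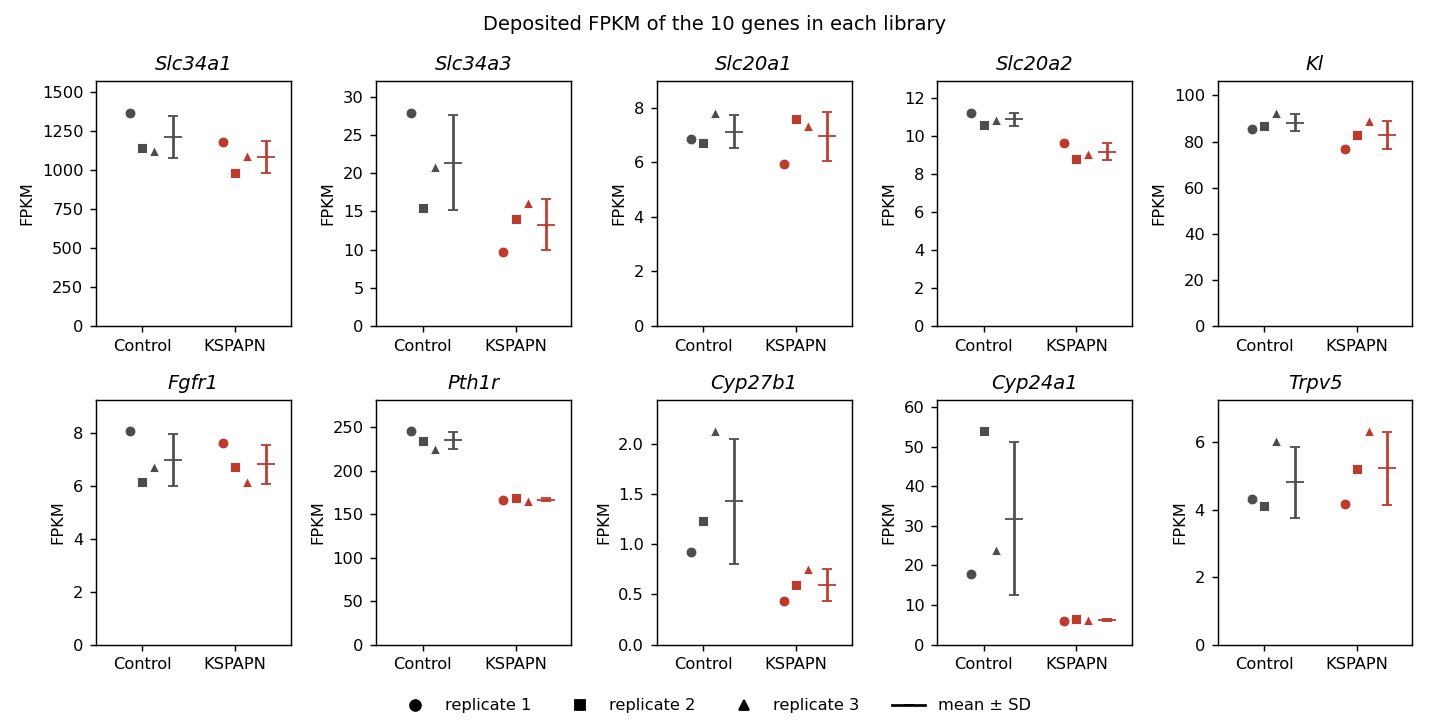
FPKM (vertical axis, from 0) of each of the 10 genes in the 3 Control and 3 KSPAPN libraries, with replicates 1, 2 and 3 drawn as circle, square and triangle and the mean with its SD beside them. The groups do not overlap for *Slc20a2*, *Pth1r*, *Cyp27b1* and *Cyp24a1*, with every KSPAPN library lower.

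For 4 of the 10 genes every KSPAPN library was below every Control library, against 13.1% of all genes tested.

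Levels are given as FPKM, which is per length and so can be set side by side between genes. *Slc34a1* was the most abundant of the 10 genes in both groups, followed by *Pth1r* and *Kl*. In Control, *Cyp24a1* came next, with *Slc34a3* overlapping it, then *Slc20a2*, *Slc20a1* and *Fgfr1*, the last pair overlapping, and *Trpv5* and *Cyp27b1* were lowest. In KSPAPN, *Slc34a3* and *Slc20a2* came before *Slc20a1*, *Fgfr1*, *Cyp24a1* and *Trpv5*, which overlapped from one to the next, and *Cyp27b1* was again lowest.

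Among the phosphate cotransporters, none passed the adjusted threshold by edgeR. *Slc34a1* (ENSMUSG00000021490, GRCm38 chr13:55398187-55415592), the main cotransporter of the brush border, had FPKM of 1368, 1145 and 1124 in Control and 1185, 980 and 1091 in KSPAPN. The groups overlapped, with means of 1212 ± 136 and 1085 ± 102 (SD, n = 3 libraries each). The log2 fold change was -0.15 ± 0.13 (SE, 95% interval -0.44 to 0.14; edgeR adjusted p = 0.582). Its share of the FPKM summed over the 4 cotransporters was 96.8, 97.2 and 96.6% in Control and 97.9, 97.0 and 97.1% in KSPAPN (difference 0.48 percentage points, two-sided exact permutation p = 0.3, smallest possible 0.1), and the difference was 0.19 without KSPAPN replicate 1.

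*Slc34a3*, the second brush border cotransporter (chr2:25228898-25234364), had FPKM of 27.9, 15.4 and 20.8 in Control and 9.65, 14.1 and 16.1 in KSPAPN. KSPAPN replicate 3 lay above Control replicate 2, so the groups overlapped. The log2 fold change was -0.69 ± 0.22 (SE, 95% interval -1.17 to -0.20), with an adjusted p of 0.128 by edgeR and 0.028 by DESeq2. *Slc20a2*, a cotransporter found in many cell types (chr8:22476788-22569612), had 11.2, 10.5 and 10.8 in Control and 9.63, 8.77 and 9.06 in KSPAPN. Every KSPAPN library was below every Control library, with a log2 fold change of -0.24 ± 0.087 (SE; edgeR adjusted p = 0.175). *Slc20a1*, its closest relative, had FPKM of 6.86, 6.71 and 7.81 in Control and 5.92, 7.58 and 7.35 in KSPAPN (log2 fold change -0.032, 95% interval -0.29 to 0.22; edgeR adjusted p = 0.913), and the sign of its difference changed when scaled by total counts, without Control replicate 3 or without KSPAPN replicate 1.

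Of the receptors, the one for parathyroid hormone was lower and *Kl* and *Fgfr1* of the FGF23 pathway were not called. *Pth1r* (ENSMUSG00000032492, chr9:110722085-110747145) had FPKM of 245, 234 and 225 in Control and 167, 168 and 165 in KSPAPN. The KSPAPN libraries lay close together and all below Control, with means of 235 ± 10.1 and 167 ± 1.68 (SD, n = 3). The log2 fold change was -0.49 ± 0.088 (SE, 95% interval -0.68 to -0.29), with an adjusted p of 0.0222 by edgeR and 1.9e-05 by DESeq2. With any one library other than KSPAPN replicate 1 left out, the adjusted p by edgeR was over 0.05, between 0.0523 without Control replicate 3 and 0.118 without KSPAPN replicate 3, with log2 fold changes from -0.52 to -0.46. With offsets for GC content and gene length, the log2 fold change was -0.28 and the edgeR adjusted p 0.195.

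Markers of the proximal tubule moved the same way. The FPKM summed over 10 markers was between 2176 and 2532 in Control and between 1667 and 1936 in KSPAPN, without overlap. Of the 10 markers, 8 had a negative log2 fold change, against 48.1% of all genes, and the median was -0.24. *Slc22a6* and *Miox* were lower at an adjusted p under 0.05 by edgeR, against 2.25% of all genes. With a library left out, their edgeR adjusted p was up to 0.144 and 0.139. Log2 fold changes were positive for 2 of 5 thick ascending limb markers and 1 of 5 distal convoluted and connecting tubule markers. They were also positive for 3 of 5 intercalated cell, 4 of 5 endothelial, 5 of 5 podocyte and 5 of 5 fibroblast markers. For principal cells it was 2 of 4 tested. Of these markers, only *Slc12a1* was called, as higher, with a log2 fold change of 0.52. Its edgeR adjusted p was 0.0437, and up to 0.193 with a library left out. In whole kidney RNA, fewer cells of a type and less RNA per cell cannot be told apart. Per summed proximal tubule markers, a measure chosen after the data were seen, *Pth1r* differed by -0.13 on the log2 scale and the groups overlapped (exact permutation p = 0.3), as *Slc34a3* did with -0.31 (exact permutation p = 0.3). *Slc34a1* relative to the same markers was 0.540, 0.477 and 0.516 in Control and 0.711, 0.515 and 0.563 in KSPAPN, a difference of 0.21 on the log2 scale (exact permutation p = 0.3) that was 0.077 without KSPAPN replicate 1. *Miox* had the highest mean FPKM of the 10 markers (917 in Control and 603 in KSPAPN) and the lowest log2 fold change (-0.60). The ratios to summed markers therefore lean on *Miox* most, and ratios without it were not computed. The part of the marker difference in the *Pth1r* result was not tested beyond these values.

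*Kl*, which encodes klotho (chr5:150952607-150993817), had FPKM of 85.3, 86.8 and 92.4 in Control and 76.9, 82.6 and 88.9 in KSPAPN. The groups overlapped, and the log2 fold change was -0.085 ± 0.097 (SE, 95% interval -0.30 to 0.13; edgeR adjusted p = 0.685). *Fgfr1*, which pairs with klotho to receive FGF23 (chr8:25513654-25575718), had 8.05, 6.15 and 6.70 in Control and 7.60, 6.71 and 6.14 in KSPAPN. Its log2 fold change was -0.025 (95% interval -0.30 to 0.25; edgeR adjusted p = 0.938), and its sign changed when scaled by total counts, corrected for GC content and gene length, or without Control replicate 1 or KSPAPN replicate 3.

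The vitamin D enzymes were both lower in every KSPAPN library, and the inactivating enzyme passed the adjusted threshold. *Cyp24a1* (ENSMUSG00000038567, chr2:170482708-170497145) had 1176, 3328 and 1491 counts in Control and 495, 414 and 465 in KSPAPN, or FPKM of 17.8, 53.9 and 23.8 against 5.97, 6.36 and 6.30. The highest Control library was 3.02 times the lowest, and the highest KSPAPN library 1.07 times the lowest. Means were 31.9 ± 19.3 and 6.21 ± 0.212 (SD, n = 3), and the log2 fold change was -2.35 ± 0.34 (SE), a 5.10-fold difference with a 95% interval of 3.05 to 8.55 (adjusted p = 0.00925 by edgeR and 0.000101 by DESeq2). Without Control replicate 2, the highest library, the log2 fold change was -1.74 (edgeR adjusted p = 0.000672), and without KSPAPN replicate 3 it was -2.36 (edgeR adjusted p = 0.0534). Per summed proximal tubule markers, the groups still did not overlap, with a difference of -1.83 on the log2 scale (exact permutation p = 0.1, the smallest possible).

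*Cyp27b1*, the activating enzyme (chr10:127048250-127053006), was the least abundant of the 10 genes. It had 44, 55 and 96 counts in Control and 26, 28 and 40 in KSPAPN, or FPKM of 0.922, 1.23 and 2.12 against 0.434, 0.595 and 0.750. Every KSPAPN library was below every Control library, by 2.40-fold in the fit. The log2 fold change was -1.26 ± 0.37 (SE, 95% interval -2.08 to -0.45), with an adjusted p of 0.101 by edgeR and 0.0276 by DESeq2. Per summed proximal tubule markers it differed by -0.84 on the log2 scale, with overlap (exact permutation p = 0.2). The ratio of *Cyp27b1* to *Cyp24a1* FPKM was 0.0517, 0.0229 and 0.0891 in Control and 0.0726, 0.0935 and 0.119 in KSPAPN, and the groups overlapped (difference of 0.98 on the log2 scale, exact permutation p = 0.2). The difference was 0.46 without Control replicate 2 and 1.44 without Control replicate 3.

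**Figure D2:**
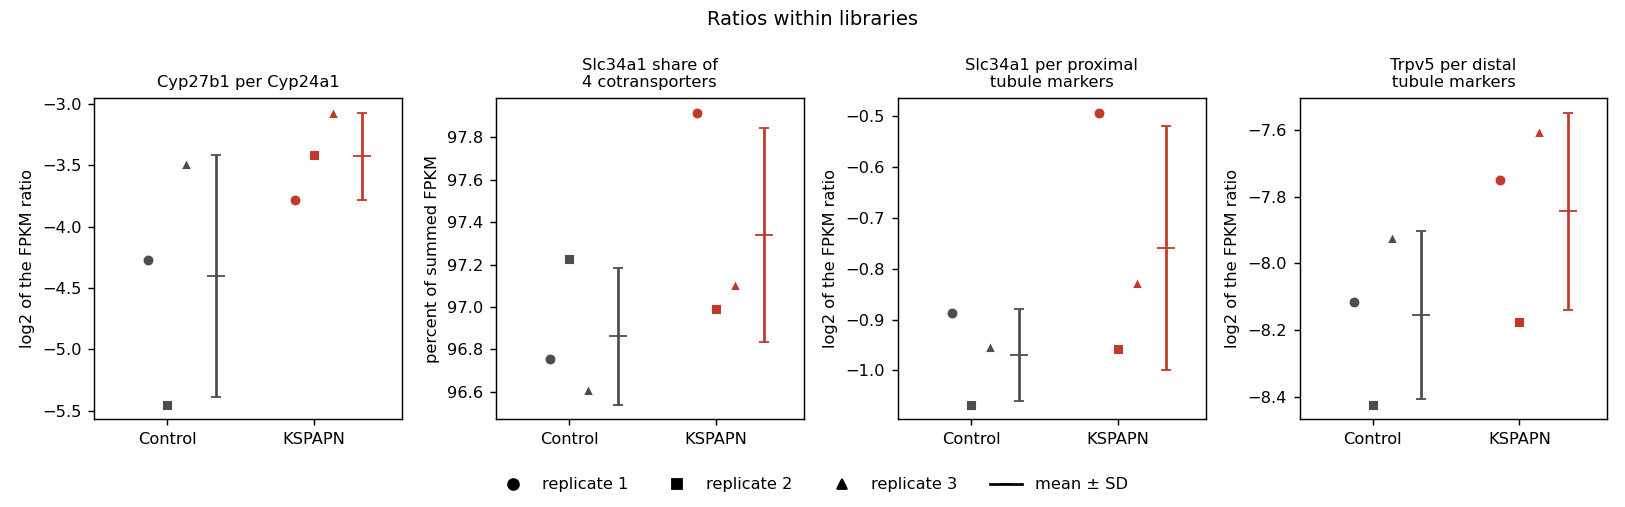
Ratios and shares of FPKM by library (vertical axes as labelled), with replicates 1, 2 and 3 drawn as circle, square and triangle and the mean with its SD. The *Slc34a1* share of the cotransporters stays between 96.6 and 97.9%, and in each of the plotted measures the 2 groups overlap.

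*Trpv5*, the calcium channel (chr6:41652173-41680769), was the only one of the 10 genes with a positive log2 fold change. The Control libraries had FPKM of 4.31, 4.11 and 6.04 and the KSPAPN libraries 4.17, 5.20 and 6.32, which overlapped. The log2 fold change was 0.12 ± 0.19 (SE, 95% interval -0.31 to 0.55; edgeR adjusted p = 0.784), and it was -0.034 without KSPAPN replicate 3. Relative to markers of the distal convoluted and connecting tubule it differed by 0.31 on the log2 scale (exact permutation p = 0.3), from 0.18 without Control replicate 2 to 0.47 without KSPAPN replicate 2. Most of that marker sum was *Klk1*, with mean FPKM of 1214 in Control and 1096 in KSPAPN. The next marker, *Slc12a3*, had 90.9 and 70.5.

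**Figure D3:**
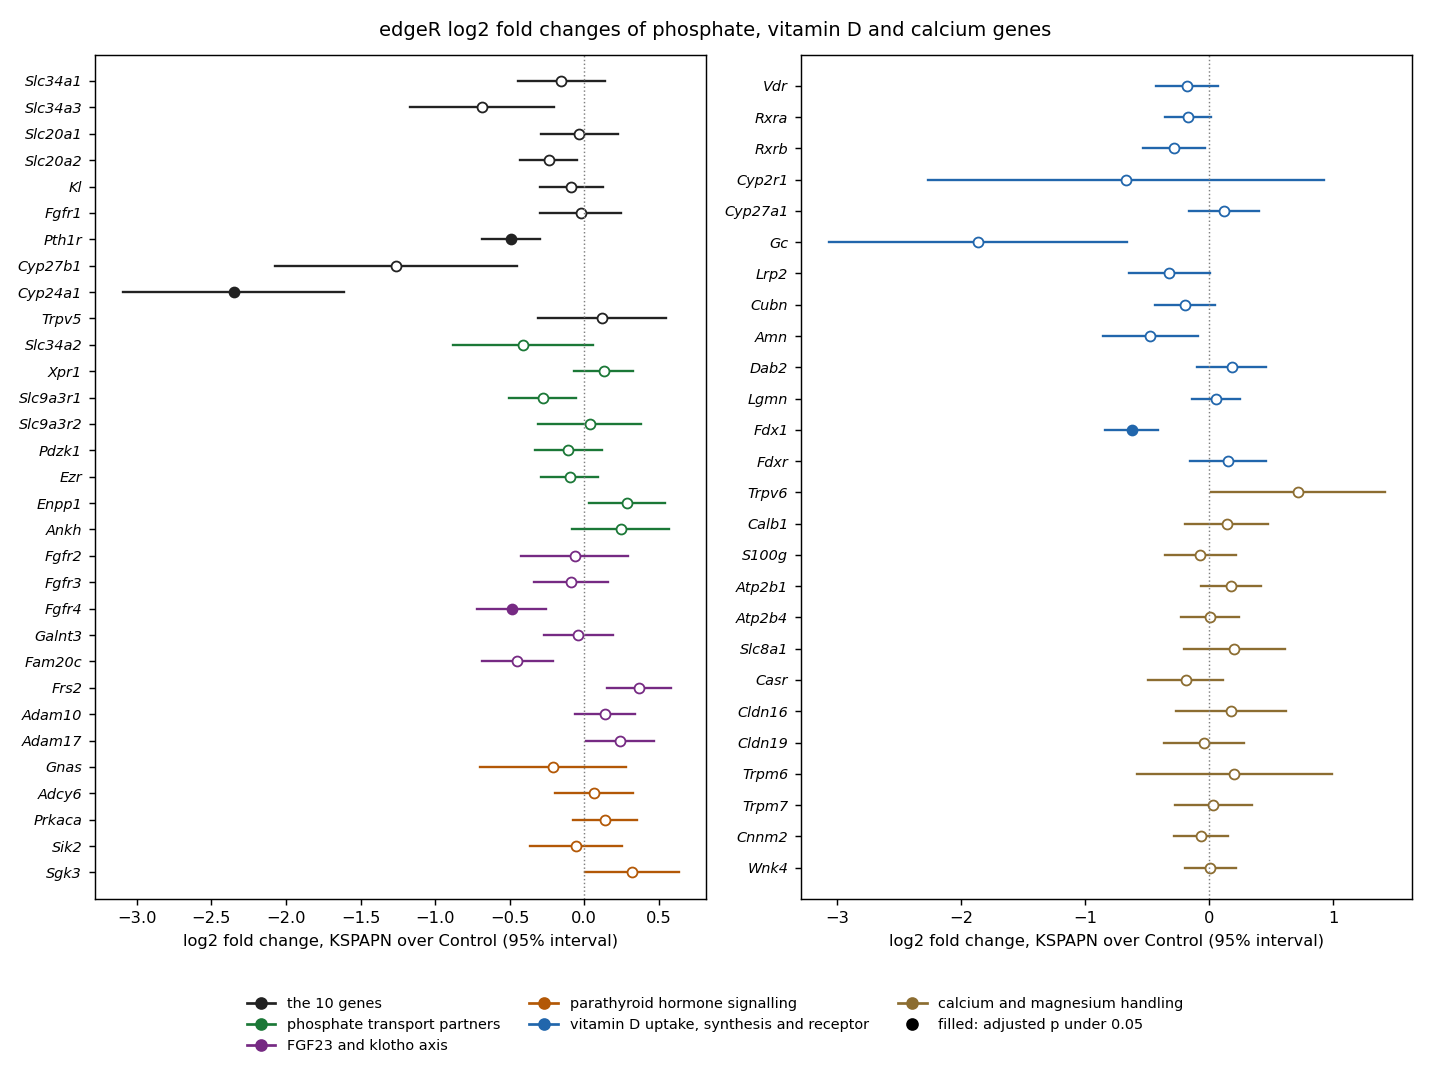
Log2 fold change of KSPAPN over Control (horizontal axis) with its 95% interval for the 10 genes and for the other genes of the pathway lists. *Cyp24a1* lies farthest from 0, at -2.35, and *Cyp27b1* next among the 10 at -1.26.

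Without Control replicate 2, 1 of the 10 genes was lower at an adjusted p under 0.05 by edgeR, as it was without either other Control library or KSPAPN replicate 2. Without KSPAPN replicate 3 there was none, and without KSPAPN replicate 1 there were 2. The fits with a library left out tested 16408 to 16575 genes. Over all genes they called, in either direction, 39, 125 and 310 without Control replicates 1, 2 and 3. Without KSPAPN replicates 1, 2 and 3 they called 733, 276 and 65, against 424 with all 6 libraries. Reads shared with overlapping genes cannot be told apart where strand is not known. *Cyp24a1* shares 83 of its 3560 exon bases with *Pfdn4*, which had 1239 counts over all libraries against 7369 for *Cyp24a1*. *Slc34a1* shares 545 bases with *Pfn3*, which had 0 counts, and *Pth1r* shares 95 with *Myl3*. *Slc20a2* shares 95 of its 6216 exon bases with *Smim19*, which had 2886 counts over all libraries against 7165 for *Slc20a2*.

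Of 54 other genes of these pathways, 47 passed the filter. By the same edgeR call 2 were lower and 0 were higher, and 24 log2 fold changes were negative and 23 positive, with a median of -0.039. Over all genes tested, 2.25% were lower, 0.393% were higher and 48.1% had a log2 fold change below 0, with a median of 0.012. The genes that were lower were *Fdx1*, which passes electrons to mitochondrial cytochrome P450 enzymes, and *Fgfr4*, another FGF receptor. *Fdx1* had mean FPKM of 28.5 ± 2.29 in Control and 18.3 ± 1.01 in KSPAPN, with a log2 fold change of -0.63 ± 0.096 (SE; edgeR adjusted p = 0.0116), which was 0.075 without Control replicate 1 and 0.0531 without KSPAPN replicate 3. *Fgfr4* had 16.9 ± 2.06 and 12.0 ± 0.401, with a log2 fold change of -0.49 ± 0.11 (SE; edgeR adjusted p = 0.0411), and the edgeR adjusted p was up to 0.193 with a library left out, 0.107 with total counts and 0.075 with GC content and gene length offsets.

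Among 8 genes that transport phosphate or anchor its transporters, none was called. On the log2 scale, *Slc34a2* differed by -0.41, *Enpp1*, which makes pyrophosphate, by 0.29 (edgeR adjusted p = 0.211), and *Slc9a3r1*, the scaffold that holds *Slc34a1* protein at the brush border, by -0.28 (edgeR adjusted p = 0.175). Of the 11 genes of FGF23 and klotho signalling, 8 were tested and 1 was lower, with a median of -0.051. On the same scale *Fam20c*, a kinase of secreted proteins, differed by -0.45 (edgeR adjusted p = 0.0567), and *Frs2*, an adaptor of FGF receptors, by 0.37 (edgeR adjusted p = 0.0752). *Fgf23* and *Pth* had 0 counts in every library, which allows levels of up to 0.144 to 0.175 CPM, depending on the library. Of 8 genes of parathyroid hormone signalling, 5 were tested and none was called. Log2 fold changes were 0.32 for *Sgk3* (edgeR adjusted p = 0.264), -0.21 for *Gnas*, the stimulatory G protein subunit, and 0.14 for *Prkaca*, a catalytic subunit of protein kinase A.

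All 13 genes of vitamin D transport and action were tested, 1 was lower and the median was -0.20. *Vdr*, the vitamin D receptor, had mean FPKM of 54.6 ± 5.03 in Control and 48.0 ± 6.39 in KSPAPN (log2 fold change -0.18; edgeR adjusted p = 0.433). *Lrp2*, which takes up filtered vitamin D with its binding protein, had 122 ± 14.0 and 97.6 ± 17.9 (log2 fold change -0.32; edgeR adjusted p = 0.27). *Gc*, the binding protein itself, had 27.5 ± 26.3 and 7.56 ± 2.11, with Control replicate 3 at 57.7, and a log2 fold change of -1.87 ± 0.54 (SE; edgeR adjusted p = 0.101), which was -0.71 without Control replicate 3. By library, *Gc* had FPKM of 14.7, 10.1 and 57.7 in Control and 5.14, 8.51 and 9.02 in KSPAPN. The FPKM summed over 5 hepatocyte markers, most of it *Ttr*, was 148, 164 and 84.9 in Control. In KSPAPN this sum was 59.6, 83.4 and 53.3. The sum follows *Ttr*, and the other hepatocyte markers did not all follow it. KSPAPN replicate 1 had 1428 counts of *Ttr*, 15 of *Alb* and 0 of *Serpina3k*. The part of hepatocyte markers in the *Gc* values was not tested. *Cyp2r1*, a liver enzyme of vitamin D activation, had 2 to 23 counts per library and differed by -0.67 on the log2 scale (edgeR adjusted p = 0.666), and by 0.23 without Control replicate 2.

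Of 14 calcium and magnesium genes, 13 were tested and none was called. *Calb1*, the calcium buffer of the distal nephron, had mean FPKM of 87.8 ± 18.6 in Control and 96.3 ± 12.7 in KSPAPN (log2 fold change 0.14; edgeR adjusted p = 0.67). *S100g*, another calcium binding protein, had 741 ± 123 and 703 ± 75.1 (log2 fold change -0.072, and 0.066 without Control replicate 3; edgeR adjusted p = 0.81). *Trpv6*, the channel closest to *Trpv5*, had 0.482 ± 0.103 and 0.790 ± 0.231 (log2 fold change 0.71 ± 0.32, SE; edgeR adjusted p = 0.26). *Trpm6*, a magnesium channel, and *Slc8a1*, the sodium-calcium exchanger, each differed by 0.20 on the log2 scale (edgeR adjusted p = 0.807 and 0.606). With a library left out, *Trpm6* ranged from -0.16 without KSPAPN replicate 3 to 0.62 without Control replicate 3, and *Slc8a1* from 0.024 without Control replicate 1 to 0.46 without Control replicate 3.

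Over the 6 libraries, *Slc13a3* (r = 0.994), *Ngdn* (r = 0.994) and *Etfb* (r = 0.994) had the log2 CPM most like that of *Cyp24a1* among 11162 protein-coding genes, and *Ap2m1* (r = 0.998), *Echs1* (r = 0.997) and *Slc52a2* (r = 0.997) that of *Pth1r*. *Slc13a3* is one of the proximal tubule markers. These Pearson correlations are a description over 6 libraries that form 2 groups.

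**Figure D4:**
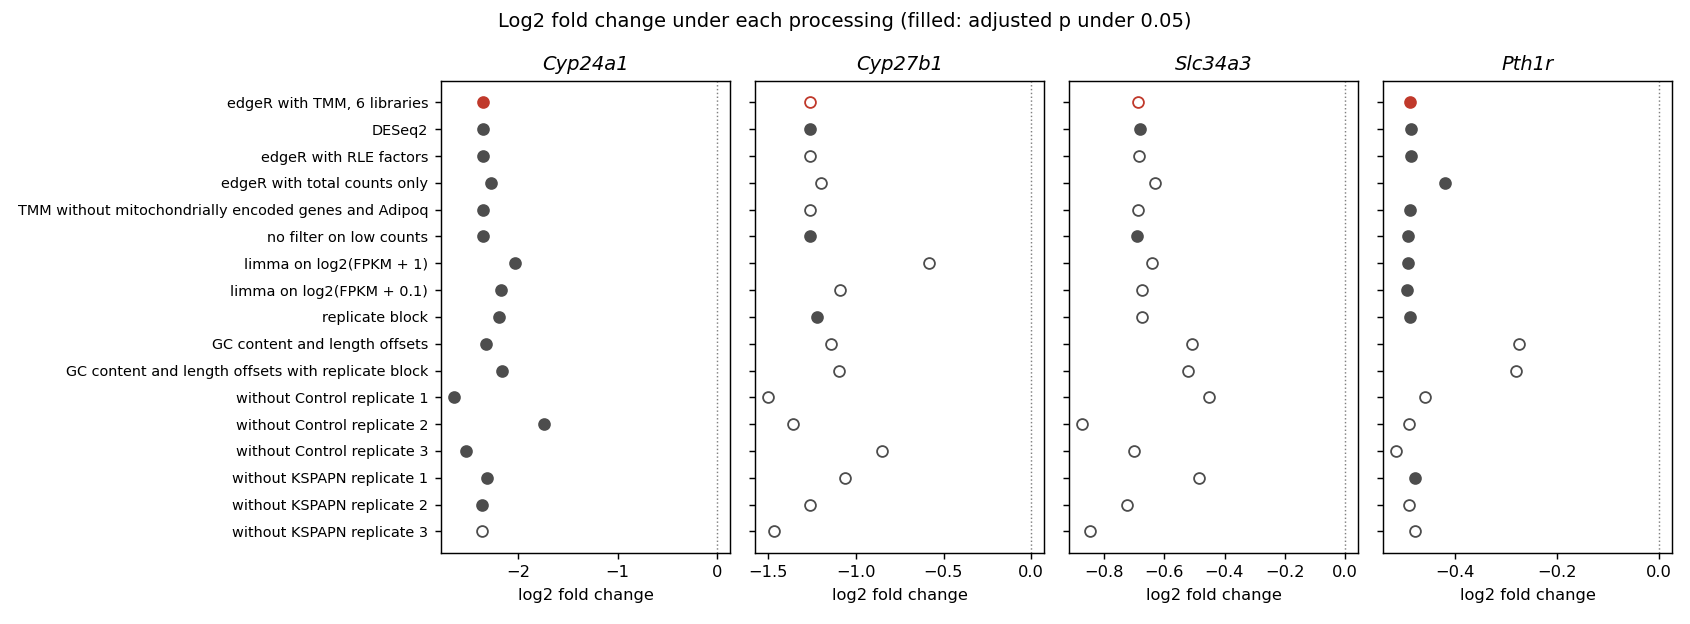
Log2 fold change of KSPAPN over Control (horizontal axis) for 4 of the genes under each alternative of the fit (rows; values per proximal tubule markers are not drawn), filled where the adjusted p was under 0.05 and red for the values reported. All points drawn lie below 0, and the *Pth1r* point nearest to 0, at -0.28, is that with GC content and gene length offsets.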

How the data were processed

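RNA of whole kidneys was sequenced in 6 libraries, 3 Control and 3 KSPAPN, after oligo(dT) enrichment. The authors deposited raw counts of reads per gene, without normalization, and FPKM, scaled by gene length and by a library total that is not stated. The submitters' processing notes name STAR 2.5, TopHat, HTSeq 0.6.1, DESeq2 and edgeR without roles, and the genome build, annotation and strandedness were not given in the sources used here. Ensembl identifiers gave symbols and coordinates through GENCODE M21 (GRCm38), with 54495 of 54532 genes matched. Promoter windows came from RefSeq.

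Counts were tested with edgeR 4.0.16 in R 4.3.3, with TMM factors, filterByExpr (at least 10 counts, total of at least 15) and the two-sided quasi-likelihood test, adjusted by Benjamini-Hochberg over 16017 genes. FPKM are printed as levels, and ratios and shares of FPKM were compared by exact permutation over the 20 arrangements. Totals were 17183358 to 20871173 counts per library, and floors from 3 counts cover counting error only. Alternatives were DESeq2 1.42.0, RLE factors, total counts, no filter, TMM without mitochondrially encoded genes and *Adipoq*, limma 3.58.1 on log2(FPKM + 1) and log2(FPKM + 0.1), a replicate block, offsets for GC content and length (splines with 5 degrees of freedom), and each library left out.

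The members and lists were chosen with earlier results of these data known. Named genes are the 10 members, *Adipoq* and list genes with an adjusted p under 0.05. Up to 3 genes per list with the largest log2 fold change were named too, as were *Vdr*, *Fgf23*, *Lrp2*, *Calb1*, *S100g* and *Trpv6*. The 3 protein-coding genes (mean FPKM of at least 1) most correlated with each member called were also named. Of markers with small counts, only *Avpr2* and those of hepatocytes were named, the latter with the other hepatocyte markers. Others (genes with overlapping exons, *Pfdn4*, *Pfn3*, *Myl3* and *Smim19*, the markers *Miox*, *Slc22a6*, *Slc12a1*, *Klk1* and *Slc12a3*, and *Pth*) were named after their values were seen. Python 3.11.15 with pandas 2.3.3 was used for tables.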

Additional observations from a re-analysis of the deposited data

How the results depend on the processing

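The number of the 10 genes lower at an adjusted p under 0.05 was 2 in the reported fit, with RLE factors, total counts, TMM without mitochondrially encoded genes and *Adipoq*, and both limma fits. It was 4 with DESeq2 and with no filter on low counts, which add *Cyp27b1* and *Slc34a3*, 3 with the replicate block, which adds *Cyp27b1*, and 1 with GC content and length offsets, with or without the replicate block. With each library left out it ranged from 0 to 2, and no alternative called a gene of the 10 higher. Of the other pathway genes, 2 were lower in the reported fit, 1 with total counts, 1 in each limma fit, 1 with the offsets, 3 with DESeq2, 4 with the replicate block, 6 with no filter, and 0 to 5 with a library left out, and 1 was higher with DESeq2 and with the replicate block. Log2 fold changes near 0 changed sign for *Slc20a1* (0.031 with total counts, -0.092 to 0.084 with a library left out), *Fgfr1* (0.045 with total counts, 0.020 with the offsets, 0.021 with offsets and block, -0.11 to 0.090 with a library left out, among them 0.048) and *Trpv5* (-0.034 to 0.32). Values of *Slc20a1* with a library left out that were above 0 were 0.044 and 0.084. Over all genes, 361 were lower and 63 higher, 195 and 71 with total counts, 300 and 99 with the offsets, 763 and 212 with DESeq2, 1038 and 301 with no filter, 705 and 224 with the replicate block, 495 and 192 with offsets and block, 118 and 10 with limma on log2(FPKM + 1) and 109 and 10 on log2(FPKM + 0.1). With a library left out, 34 to 571 of all genes were lower and 5 to 162 higher. Higher calls were 14.9% of all calls, 26.7% with total counts and 24.8% with the offsets, and total counts moved the median log2 fold change from 0.012 to 0.081. Replicate numbers are shared by the groups, but the deviations of same-numbered libraries correlated at 0.054, 0.15 and 0.17, so the numbers were not taken as pairs, although each library correlated best with its own number. With the replicate block, *Cyp27b1* had a log2 fold change of -1.22 and an edgeR adjusted p of 0.0417. The causes of these changes were not tested. With 3 pools per group, exact permutation cannot go below 0.1, and counts of *Cyp27b1* were under 100 in every library.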
